A study of Caenorhabditis elegans with 15 samples.

Results

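The 49 genes described here encode helpers of protein folding in the nematode Caenorhabditis elegans: 29 DNAJ co-chaperones (dnj- genes), the 8 subunits of the cytosolic chaperonin CCT (cct- genes), the 6 subunits of prefoldin (pfd- genes), the cytosolic HSP90 chaperone hsp-90 (also named daf-21) with 4 of its co-chaperones (sti-1, cdc-37, bag-1 and chn-1), and the mitochondrial chaperonin hsp-60. They are every gene whose WormBase symbol starts with dnj-, cct- or pfd- plus the 6 named genes, and make up 49 of the 20392 genes counted. This set was chosen with earlier results of these data known. RNA was sequenced from early embryos in 5 groups of 3 biological replicates. Embryos with the deletion allele n4256 (met-2Δ) of met-2, the worm SETDB1-like enzyme that methylates histone H3 at lysine 9, and embryos of the wild-type strain N2 (WT) were taken after 1 h of heat stress at 37 °C. Embryos of met-2Δ, of a CRISPR-made point mutant in the catalytic SET domain (met-2-CD, allele gw1660) and of WT were taken from cultures kept at 20 °C. The heat was given to the worm cultures and embryos were then freed by bleaching in warmed buffers, so the embryos were stressed inside their mothers. Each genotype is a single strain, and met-2-CD was not heated.

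DNAJ proteins, also called HSP40s or J proteins, bind unfolded clients and stimulate the ATPase of HSP70 through their J domain. STI-1, the worm counterpart of yeast Sti1 and mammalian HOP, links HSP70 to HSP90, CDC-37 brings protein kinases to HSP90, BAG-1 releases nucleotide from HSP70, and CHN-1, the counterpart of mammalian CHIP, is a ubiquitin ligase that acts on chaperone-bound clients. CCT is a ring-shaped folding chamber for actin and tubulin, prefoldin hands nascent actin and tubulin to it, and HSP-60 does the corresponding work in the mitochondrial matrix. In heat-stressed animals HSF-1, the heat shock transcription factor, is known to raise transcription of HSP90, its co-chaperones and some DNAJ genes.

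The libraries held 16.15 to 58.84 M counts, and all 49 genes passed the filter on low counts that left 15471 genes for testing. The lowest count of a member in any library was 15, for dnj-3. Levels are given as CPM, read counts scaled to a common library size with TMM factors, where a floor of 3 counts stands at 0.0564 to 0.18 CPM, and differences as log2 fold changes (log2FC) with their standard error (SE). A gene was called when the FDR of the edgeR quasi-likelihood F test, adjusted over all genes tested, was below 0.01. The targeted gene met-2 averaged 60.4 ± 2.03 CPM in met-2Δ, against 276 ± 9.87 CPM in WT at 37 °C, and 33.6 ± 0.919 CPM in met-2Δ, 295 ± 14 CPM in the met-2-CD mutant and 313 ± 6.27 CPM in WT at 20 °C (SD, n = 3 each). The point mutation of met-2-CD leaves the transcript in place, so its met-2 level does not check that label. All 10 markers of early embryos were counted in every group, with a summed level of 2052 to 3384 CPM over the 15 libraries. The rarest of them, end-1 and end-3, averaged 35.8 and 11.2 CPM in WT at 20 °C. In the other groups they averaged 6.16 to 12.2 and 2.1 to 4.42 CPM. Of the 10, 4 were called lower and 0 higher with heat in WT (35.6% and 44% of all genes). Against WT at 20 °C, 3 were lower and 1 higher in met-2Δ (27.5% and 28.2%), and 5 and 0 in met-2-CD (24.9% and 26.5%). The 10 markers of differentiated or adult tissue summed to 1220.2 to 1515 CPM in met-2Δ and 1448 to 2273 CPM in WT at 37 °C, to 378 to 563 CPM in met-2Δ and 320.4 to 708 CPM in the met-2-CD mutant at 20 °C, and to 52.4 to 127 CPM in WT at 20 °C. The muscle myosins unc-54 and myo-3 carried most of that sum, the yolk genes vit-2, vit-5 and vit-6 stayed at or under 6.85 CPM, and the sperm gene msp-3 was at 0 in all groups but met-2-CD, where its mean was 0.023 CPM. Of these 10 markers, 8 were tested. With heat, 8 were called higher in WT and 7 in met-2Δ (44% and 17.3% of all genes), and 0 lower in either. Against WT at 20 °C, 5 were higher and 0 lower in met-2Δ, and 3 and 1 in met-2-CD. These markers move with temperature and with genotype, as do the differences below, and their part in those differences was not tested. In whole embryos, fewer cells of a type and less RNA per cell cannot be told apart.

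The WT libraries at 20 °C stood apart for these genes. Of the 49 genes, 28 (57.1%) were higher in all 3 WT libraries at 20 °C than in any of the other 12 libraries, against 23.1% of all genes tested, and 10 (20.4%) were lower, against 20.1%. The 28 comprised bag-1, chn-1, every prefoldin gene but pfd-2, and 21 of the 29 DNAJ genes. The comparisons of WT at 37 °C with WT at 20 °C, of either mutant with WT at 20 °C, and of the heat responses of the 2 genotypes all rest on these 3 libraries. Values with met-2-CD at 20 °C in place of WT at 20 °C are therefore given for the genes described with their libraries and for the counts.

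After heat, hsp-90, sti-1, the CCT subunits and a few DNAJ genes were higher, whereas most DNAJ genes and most prefoldin genes were lower or did not pass the test. In WT, 17 of the 49 genes rose and 27 fell, where 44% of all genes tested rose and 35.6% fell (79.6% called in all). The median log2FC was −0.51 over the 49 genes and 0.18 over all genes tested. In met-2Δ, 16 genes rose and 13 fell, where 17.3% of all genes rose and 21.2% fell (38.5% called in all), with medians of −0.04 and 0.04. The 2 heat comparisons share no library. In both of them, 13 genes rose (hsp-90, sti-1, hsp-60, cct-3 to cct-8, dnj-8, dnj-12, dnj-13 and dnj-24) and 12 fell (11 DNAJ genes and pfd-3). Calls of opposite sign were those of pfd-2, which rose in WT and fell in met-2Δ, and of dnj-15, which fell in WT and rose in met-2Δ. The rise of dnj-15 was not called without replicate b or c at 20 °C or any replicate at 37 °C of met-2Δ (0.31 to 0.34), and its fall in WT was not called against met-2-CD at 20 °C (−0.01 ± 0.08 SE, edgeR FDR 0.892). Scaling by library totals in place of TMM moved the median of all genes by 0.23 in WT and 0.01 in met-2Δ (log2), and left 19 members higher and 26 lower in WT and 17 higher and 13 lower in met-2Δ.

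Large changes were few. With a fold above 2, 7 genes rose and 11 fell in WT, where 37.3% and 16.9% of all genes did, and 5 rose in met-2Δ, where 12.8% did. Scaled by library totals, the split in WT was 9 higher and 5 lower. No member fell by that much in met-2Δ (4.3% of all genes did), the lowest being dnj-9 at −0.52. With a fold above 4, the limit the study used for heat, hsp-90 rose and pfd-1 fell in WT, where 28.2% of all genes rose and 4.02% fell by that much, and no member reached that fold in met-2Δ (6.3% and 0.53% of all genes did), the highest being dnj-13 at 1.78. Without a single library of met-2Δ the count of 29 called genes in that genotype dropped to 19 (37 °C, replicate a), 19 (37 °C, replicate c) or 17 (20 °C, replicate b), with 14 higher and 5 lower, 13 higher and 6 lower, and 14 higher and 3 lower in that order, and hsp-90, sti-1, dnj-12, dnj-13, dnj-19 and dnj-24 stayed called each time. Against met-2-CD at 20 °C, a comparison that crosses genotype and temperature, 18 genes were higher and 18 lower in heated WT, where 36% and 30% of all genes were, and 5 were higher by more than 2-fold (hsp-90, sti-1, dnj-12, dnj-13 and dnj-24). The median over the 49 genes was then −0.01, against 0.08 over all genes. Of the 44 calls in WT, 10 were lost against met-2-CD (chn-1, dnj-3, dnj-15, dnj-16, dnj-17, dnj-20, pfd-2, pfd-4, pfd-5 and pfd-6), and bag-1 and dnj-19 were called higher. None was lower by more than 2-fold, the lowest being dnj-7 at −0.60 ± 0.06 (SE).

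**Figure D1:**
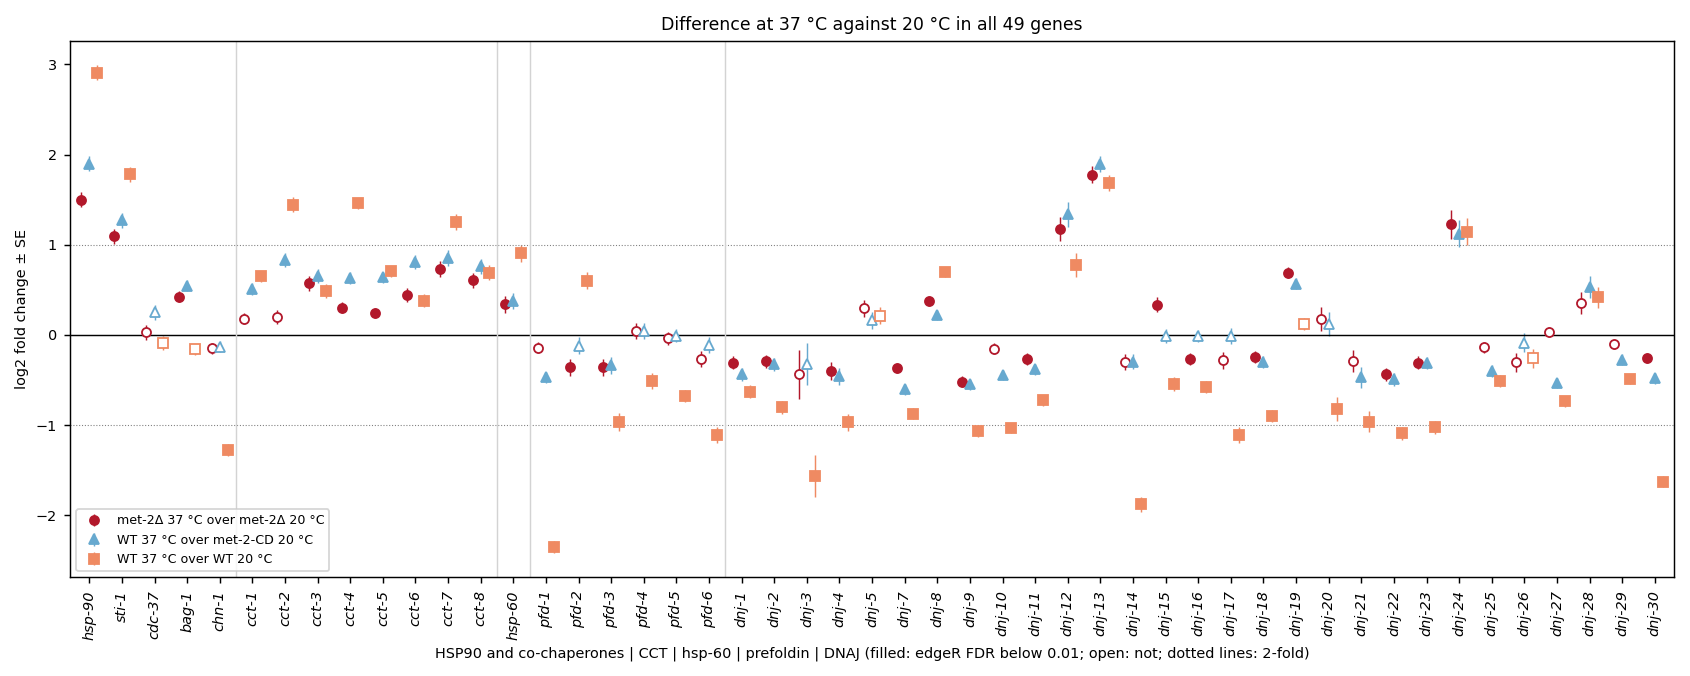
Log2 fold change with its SE (vertical axis) of the 49 genes (horizontal axis, by role) at 37 °C over 20 °C in met-2Δ (circles), in WT over met-2-CD (triangles) and in WT over WT (squares), with filled symbols for an edgeR FDR below 0.01. The squares of most prefoldin and DNAJ genes lie below the circles and triangles, for pfd-1 at −2.35 against −0.14 in met-2Δ, while dnj-13 lies between 1.69 and 1.89 in all 3.

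Among HSP90 and its co-chaperones, hsp-90 and sti-1 rose with heat in both genotypes and the other 3 genes did not do so in both. The gene hsp-90 lies on chromosome V (14684918 to 14688545, plus strand, WBcel235). It had 5484, 5058 and 4779 CPM in the 3 met-2Δ libraries and 8216, 7938 and 7029.7 CPM in the 3 WT libraries at 37 °C. At 20 °C it had 1756, 1862 and 1799 CPM in met-2Δ, 1911, 2184 and 2124 CPM in the met-2-CD mutant and 1055, 1020.1 and 1016 CPM in WT. The 6 heated libraries were above all 9 unheated ones, and no mutant library overlapped the WT libraries of its temperature. The log2FC with heat was 1.50 ± 0.08 (SE, edgeR FDR 1.65e-09) in met-2Δ and 2.91 ± 0.08 (SE, edgeR FDR 3.28e-13) in WT, folds of 2.83 and 7.5. Against met-2-CD at 20 °C, heated WT embryos had a log2FC of 1.90 ± 0.08 (SE, edgeR FDR 7.61e-11). As a share of the summed CPM of the 49 genes, hsp-90 took 34.9% in met-2Δ and 42.1% in WT at 37 °C, and 19.7% in met-2Δ, 21.4% in the met-2-CD mutant and 10.3% in WT at 20 °C.

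The HOP counterpart sti-1 (chromosome V, 773518 to 774775, plus strand, WBcel235) moved with hsp-90 over a smaller range. It had 243, 276 and 272 CPM in met-2Δ and 321, 329.8 and 263 CPM in WT at 37 °C. At 20 °C it had 123, 128 and 120.5 CPM in met-2Δ, 129.9, 117 and 132 CPM in the met-2-CD mutant and 85.5, 88.6 and 92.1 CPM in WT. The heated libraries were all above the unheated ones, and the 2 genotypes overlapped at 37 °C. Its log2FC with heat was 1.09 ± 0.08 (SE, edgeR FDR 5.48e-08) in met-2Δ and 1.78 ± 0.08 (SE, edgeR FDR 2.78e-11) in WT. In heated WT over met-2-CD at 20 °C it was 1.27 ± 0.08 (SE, edgeR FDR 3e-09). Per kilobase of exon, hsp-90 stood at 8.15 to 10.5 times sti-1 in the met-2Δ libraries and 11.2 to 12.4 times in the WT libraries at 37 °C, and at 6.66 to 6.94 times in met-2Δ, 6.83 to 8.64 times in the met-2-CD mutant and 5.13 to 5.73 times in WT at 20 °C. The ratio of the chaperone transcript to that of its partner was higher in every heated library than in the unheated libraries of the same genotype.

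The kinase co-chaperone cdc-37 was not called with heat in either genotype. It had 159, 164 and 164 CPM in met-2Δ and 187, 181 and 169 CPM in WT at 37 °C. At 20 °C it had 159, 157 and 159.6 CPM in met-2Δ, 159.9, 142 and 149 CPM in the met-2-CD mutant and 195, 162 and 213 CPM in WT. The 15 libraries ran from 142 to 213 CPM, with the widest spread in WT at 20 °C. At 20 °C the gene was called lower in met-2-CD than in WT. That call was lost with library totals or in a model of those groups alone. Its log2FC with heat was 0.03 ± 0.08 (SE, edgeR FDR 0.772) in met-2Δ and −0.09 ± 0.08 (SE, edgeR FDR 0.318) in WT. In heated WT over met-2-CD at 20 °C it was 0.25 ± 0.08 (SE, edgeR FDR 0.0105), of the other sign and just short of a call.

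The HSP70 exchange factor bag-1 and the ubiquitin ligase gene chn-1 were both highest in WT at 20 °C. In bag-1, CPM values were 83.1, 80.8 and 85.3 in met-2Δ and 101, 109 and 95.2 in WT at 37 °C, and 61.7, 65 and 58.8 in met-2Δ, 68.9, 71.7 and 68.8 in the met-2-CD mutant and 111, 111 and 119 in WT at 20 °C. The heated met-2Δ libraries were above the unheated met-2Δ libraries, whereas the heated WT libraries lay between met-2-CD and WT at 20 °C. The log2FC of bag-1 with heat was 0.42 ± 0.06 (SE, edgeR FDR 4.64e-05) in met-2Δ, −0.16 ± 0.06 (SE, edgeR FDR 0.0248) in WT and 0.55 ± 0.06 (SE, edgeR FDR 1.02e-06) in WT over met-2-CD at 20 °C. In chn-1, CPM values were 71.5, 67.3 and 65 in met-2Δ and 62.7, 65.6 and 67 in WT at 37 °C, and 80.3, 75.1 and 70.4 in met-2Δ, 71.1, 75.1 and 67.6 in the met-2-CD mutant and 157, 154 and 163 in WT at 20 °C. For chn-1 the WT libraries at 20 °C were alone, far above the other 12. Its fall with heat in WT (log2FC −1.28 ± 0.06 SE, edgeR FDR 5.23e-11) was not called against met-2-CD at 20 °C (−0.13 ± 0.06 SE, edgeR FDR 0.0725) or in met-2Δ (−0.15 ± 0.06 SE, edgeR FDR 0.0617).

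**Figure D2:**
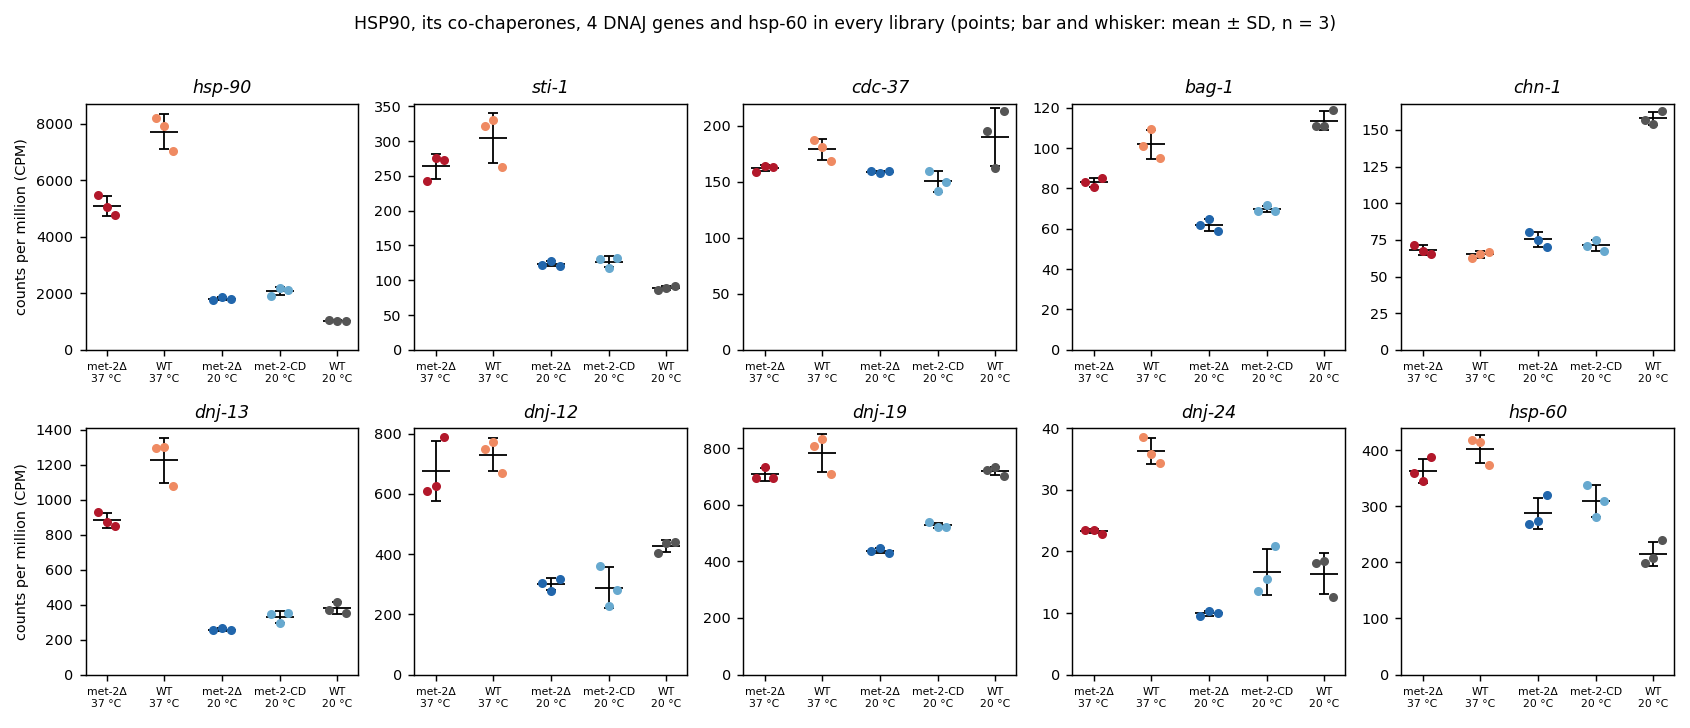
CPM (vertical axes, from 0, a scale for each gene) in every library of the 5 groups (horizontal axes) for 10 genes, with points for libraries and bars and whiskers for the mean ± SD of 3. The heated libraries of hsp-90, sti-1, dnj-13, dnj-12 and dnj-24 lie above every unheated one, and for chn-1 the 3 WT libraries at 20 °C lie at 154 to 163 CPM against 62.7 to 80.3 CPM in the other 12.

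The DNAJ family was split. Of the 29 genes, 5 rose and 21 fell with heat in WT, where 44% of all genes tested rose and 35.6% fell. In met-2Δ 6 rose and 11 fell, where 17.3% of all genes rose and 21.2% fell. Of the 11 falls, 8 were not called without replicate b at 20 °C (dnj-1, dnj-2, dnj-4, dnj-11, dnj-16, dnj-18, dnj-23 and dnj-30). Against met-2-CD at 20 °C, heated WT had 6 DNAJ genes higher and 16 lower, with a median of −0.30, where 36% and 30% of all genes were. The genes that rose in both were dnj-8, dnj-12, dnj-13 and dnj-24, and the median log2FC over the family was −0.25 in met-2Δ and −0.73 in WT. The most abundant DNAJ transcripts at 37 °C were dnj-13, dnj-19 and dnj-12, the worm counterparts of the general cytosolic HSP40s of mammals, with mean levels per kilobase of exon of 630.1, 459.9 and 403 CPM in met-2Δ and 875, 509 and 435 CPM in WT.

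Of these, dnj-13, a type II HSP40 that works with HSP70, had the largest rise. The gene lies on chromosome II (11545701 to 11547360, plus strand, WBcel235). It had 927, 869 and 846 CPM in met-2Δ and 1293, 1301 and 1075 CPM in WT at 37 °C. At 20 °C it had 252, 266 and 252 CPM in met-2Δ, 346, 292 and 350.2 CPM in the met-2-CD mutant and 371, 415 and 353 CPM in WT. No heated library came near an unheated one. The log2FC was 1.78 ± 0.09 (SE, edgeR FDR 1.09e-09) in met-2Δ, 1.69 ± 0.09 (SE, edgeR FDR 1.25e-10) in WT and 1.89 ± 0.09 (SE, edgeR FDR 2.11e-10) in WT over met-2-CD at 20 °C. The difference between its heat responses in met-2Δ and WT was not called, at 0.09 ± 0.13 (SE, edgeR FDR 0.543).

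The type I HSP40 genes dnj-12 and dnj-19 differed from each other in WT. In dnj-12, CPM values were 610.1, 626 and 789 in met-2Δ and 747, 772 and 668 in WT at 37 °C, and 304, 277 and 316 in met-2Δ, 361, 226 and 279 in the met-2-CD mutant and 403, 437 and 439.8 in WT at 20 °C. Heated libraries were above all unheated ones, and the genotypes overlapped at 37 °C. Its log2FC was 1.18 ± 0.14 (SE, edgeR FDR 4.51e-06) in met-2Δ and 0.77 ± 0.13 (SE, edgeR FDR 6.06e-05) in WT. In heated WT over met-2-CD at 20 °C it was 1.34 ± 0.14 (SE, edgeR FDR 3.62e-07). In dnj-19, CPM values were 695, 732 and 694 in met-2Δ and 808, 832 and 708 in WT at 37 °C, and 436, 448 and 429 in met-2Δ, 538, 523 and 521 in the met-2-CD mutant and 721, 734 and 703 in WT at 20 °C. Here the WT libraries at 20 °C lay among the heated ones and both mutants below them. The log2FC of dnj-19 was 0.69 ± 0.06 (SE, edgeR FDR 3.41e-07) in met-2Δ and 0.12 ± 0.06 (SE, edgeR FDR 0.0769) in WT, and 0.57 ± 0.06 (SE, edgeR FDR 6.91e-07) in WT over met-2-CD at 20 °C.

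Among the less abundant DNAJ genes, dnj-24 rose more than 2-fold in both genotypes. It had 23.5, 23.4 and 22.9 CPM in met-2Δ and 38.6, 35.9 and 34.4 CPM in WT at 37 °C, and 9.55, 10.3 and 10.02 CPM in met-2Δ, 13.6, 15.4 and 20.8 CPM in the met-2-CD mutant and 18.2, 18.4 and 12.6 CPM in WT at 20 °C. The heated groups did not overlap each other or any unheated library. The log2FC was 1.23 ± 0.16 (SE, edgeR FDR 1.29e-05) in met-2Δ and 1.14 ± 0.15 (SE, edgeR FDR 2.85e-06) in WT. In heated WT over met-2-CD at 20 °C it was 1.12 ± 0.15 (SE, edgeR FDR 6.01e-06). A non-coding gene on the same strand overlaps 51 bases of dnj-24 exon in the annotation, so some of these reads could belong to it. In WT, dnj-28 was also called (log2FC 0.42 ± 0.12 SE, edgeR FDR 0.00428), and it lost that call without replicate a or c of WT at 37 °C or replicate a or b of WT at 20 °C (0.28 to 0.42). The DNAJC16 counterpart dnj-8 rose by 0.38 ± 0.05 (SE, edgeR FDR 3.51e-05) in met-2Δ and 0.69 ± 0.05 (SE, edgeR FDR 7.75e-09) in WT.

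The largest falls in WT were in dnj-14, dnj-30 and dnj-3. The first is the worm cysteine string protein, a DNAJ protein of synaptic vesicles. It had 37, 41.2 and 39.9 CPM in met-2Δ and 44.3, 40.9 and 42.4 CPM in WT at 37 °C, and 51.5, 46 and 47.5 CPM in met-2Δ, 60.2, 47.8 and 48.7 CPM in the met-2-CD mutant and 157, 147 and 166 CPM in WT at 20 °C. Only the WT libraries at 20 °C were high. Its log2FC with heat was −1.88 ± 0.09 (SE, edgeR FDR 2.68e-11) in WT, −0.30 ± 0.09 (SE, edgeR FDR 0.0056) in WT over met-2-CD at 20 °C and −0.30 ± 0.09 (SE, edgeR FDR 0.0106) in met-2Δ. In dnj-30, CPM values were 46.8, 51.2 and 51.2 in met-2Δ and 47.4, 47.7 and 48.3 in WT at 37 °C, and 60.5, 61.6 and 56 in met-2Δ, 66.3, 69.5 and 64.6 in the met-2-CD mutant and 146, 147 and 150.2 in WT at 20 °C. The same group was set apart, and the heated libraries were below the unheated ones in each genotype. The log2FC of dnj-30 was −0.25 ± 0.06 (SE, edgeR FDR 0.00182) in met-2Δ, −1.63 ± 0.06 (SE, edgeR FDR 2.11e-12) in WT and −0.48 ± 0.06 (SE, edgeR FDR 1.71e-06) in WT over met-2-CD at 20 °C. The call of dnj-30 in met-2Δ was lost without replicate a at 37 °C or replicate a or b at 20 °C (−0.24 to −0.21). The rarest member, dnj-3, had 1.87, 1.52 and 0.901 CPM in met-2Δ and 2.77, 1.86 and 2.18 CPM in WT at 37 °C, and 2.33, 2.14 and 1.34 CPM in met-2Δ, 2.24, 3.01 and 3.21 CPM in the met-2-CD mutant and 6.74, 6.4 and 7.03 CPM in WT at 20 °C. It was called in WT (−1.56 ± 0.23 SE, edgeR FDR 1.01e-05) but not against met-2-CD (−0.32 ± 0.23 SE, edgeR FDR 0.229) or in met-2Δ (−0.44 ± 0.27 SE, edgeR FDR 0.191).

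In met-2Δ, where WT at 20 °C plays no part, the falls were smaller, and the 3 largest among called genes were in dnj-9, dnj-22 and dnj-4. In dnj-9, CPM values were 65.8, 69.9 and 63.4 in met-2Δ and 62.5, 68.6 and 66 in WT at 37 °C, and 92, 99 and 94.1 in met-2Δ, 99.96, 98.4 and 89.7 in the met-2-CD mutant and 133, 138 and 141 in WT at 20 °C. Its heated libraries were below all 9 unheated ones, with a log2FC of −0.52 ± 0.06 (SE, edgeR FDR 6.53e-06) in met-2Δ, −1.06 ± 0.06 (SE, edgeR FDR 2.78e-10) in WT and −0.55 ± 0.06 (SE, edgeR FDR 1.01e-06) in WT over met-2-CD at 20 °C. In dnj-22, CPM values were 62, 61.5 and 67 in met-2Δ and 57.1, 65.2 and 61 in WT at 37 °C, and 83.8, 87.5 and 85.9 in met-2Δ, 93.7, 83.9 and 80.4 in the met-2-CD mutant and 138, 121 and 130.2 in WT at 20 °C. The pattern was that of dnj-9, with a log2FC of −0.43 ± 0.07 (SE, edgeR FDR 0.000159) in met-2Δ, −1.09 ± 0.07 (SE, edgeR FDR 1.27e-09) in WT and −0.49 ± 0.07 (SE, edgeR FDR 1.54e-05) in WT over met-2-CD. The third, dnj-4, was rarer. In dnj-4, CPM values were 8.4, 9.78 and 9.55 in met-2Δ and 9.27, 8.42 and 9.18 in WT at 37 °C, and 11.8, 12.8 and 12 in met-2Δ, 11.6, 12.9 and 12.5 in the met-2-CD mutant and 17.8, 17.1 and 17.5 in WT at 20 °C. The fall of dnj-4 in met-2Δ (−0.40 ± 0.10 SE, edgeR FDR 0.00306) was not called without replicate a at 37 °C or replicate b at 20 °C (−0.34 and −0.35). In heated WT over met-2-CD at 20 °C its log2FC was −0.46 ± 0.09 (SE, edgeR FDR 0.000392).

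Of the 21 DNAJ genes that fell in WT, 5 more are named here for the known site of their counterparts, a choice made after their values were seen. They are dnj-20, whose mammalian counterpart DNAJB11 works in the endoplasmic reticulum (−0.82 ± 0.13 SE, edgeR FDR 2.8e-05), the counterpart of the disulphide reductase ERdj5, dnj-27 (−0.73 ± 0.06 SE, edgeR FDR 1.51e-08), the counterpart of the translocon subunit SEC63, dnj-29 (−0.49 ± 0.06 SE, edgeR FDR 9.74e-07), the auxilin gene dnj-25 (−0.51 ± 0.06 SE, edgeR FDR 1.76e-06) and dnj-10, whose mammalian counterpart TID1 is mitochondrial (−1.03 ± 0.06 SE, edgeR FDR 1.52e-10). None of these 5 was called in met-2Δ with heat, where their log2FC lay between −0.15 and 0.18. Against met-2-CD at 20 °C, heated WT embryos were lower for dnj-10, dnj-25, dnj-27 and dnj-29 (−0.44 ± 0.06, −0.40 ± 0.06, −0.53 ± 0.06 and −0.27 ± 0.06, SE) and not called for dnj-20 (0.12 ± 0.13).

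All 8 CCT genes rose with heat in WT and 6 of 8 in met-2Δ, where 44% and 17.3% of all genes tested rose. The log2FC ran from 0.38 (cct-6) to 1.46 (cct-4) in WT with a median of 0.70, and from 0.18 (cct-1) to 0.73 (cct-7) in met-2Δ with a median of 0.37, and cct-1 and cct-2 were not called in met-2Δ. Against met-2-CD at 20 °C all 8 were called higher in heated WT, with a median of 0.71, where 36% of all genes were higher. The summed level of the 8 genes per kilobase of exon was 1643 ± 71.2 CPM in met-2Δ and 1967 ± 137 CPM in WT at 37 °C, and 1285 ± 21.4 CPM in met-2Δ, 1224 ± 16.6 CPM in the met-2-CD mutant and 1111 ± 54.4 CPM in WT at 20 °C (SD, n = 3 each). The products of the 8 genes sit side by side in each ring of the complex. Their levels per kilobase were more even after heat, with a coefficient of variation over the subunits of 29.5% in met-2Δ and 30.6% in WT at 37 °C, and of 41.2% in met-2Δ, 37.6% in the met-2-CD mutant and 42.7% in WT at 20 °C. Exon lengths come from another annotation (WBcel235) than the counts (WS220), and these percentages depend on those lengths.

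The subunits with the largest rise, the smallest rise and the largest difference between genotypes were cct-4, cct-6 and cct-2. The gene cct-4 (chromosome II, 8283667 to 8285711, plus strand, WBcel235) had 366, 401 and 354 CPM in met-2Δ and 488, 500.2 and 439 CPM in WT at 37 °C, and 302, 304 and 304 CPM in met-2Δ, 299, 317 and 306 CPM in the met-2-CD mutant and 172, 169 and 178 CPM in WT at 20 °C. WT at 20 °C was the low group and WT at 37 °C the high one. The log2FC of cct-4 was 0.30 ± 0.06 (SE, edgeR FDR 0.000854) in met-2Δ, 1.46 ± 0.06 (SE, edgeR FDR 1.19e-11) in WT and 0.63 ± 0.06 (SE, edgeR FDR 2.3e-07) in WT over met-2-CD at 20 °C. In cct-6, CPM values were 341, 371 and 326 in met-2Δ and 468, 488 and 413 in WT at 37 °C, and 258, 261 and 244 in met-2Δ, 249, 269 and 265 in the met-2-CD mutant and 326, 359 and 367 in WT at 20 °C. For this subunit the WT libraries at 20 °C lay above both mutants at 20 °C and among the heated met-2Δ libraries. The log2FC of cct-6 was 0.44 ± 0.07 (SE, edgeR FDR 0.000134) in met-2Δ, 0.38 ± 0.07 (SE, edgeR FDR 0.000149) in WT and 0.81 ± 0.07 (SE, edgeR FDR 9.89e-08) in WT over met-2-CD at 20 °C. In cct-2, CPM values were 349, 414 and 372 in met-2Δ and 545, 583 and 489 in WT at 37 °C, and 324, 339 and 326 in met-2Δ, 303, 303 and 306 in the met-2-CD mutant and 202, 179 and 212 in WT at 20 °C. Heated WT libraries were far above the rest and the unheated WT libraries far below. The log2FC of cct-2 was 0.20 ± 0.08 (SE, edgeR FDR 0.0446) in met-2Δ, 1.45 ± 0.08 (SE, edgeR FDR 1.69e-10) in WT and 0.83 ± 0.08 (SE, edgeR FDR 1.81e-07) in WT over met-2-CD at 20 °C.

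**Figure D3:**
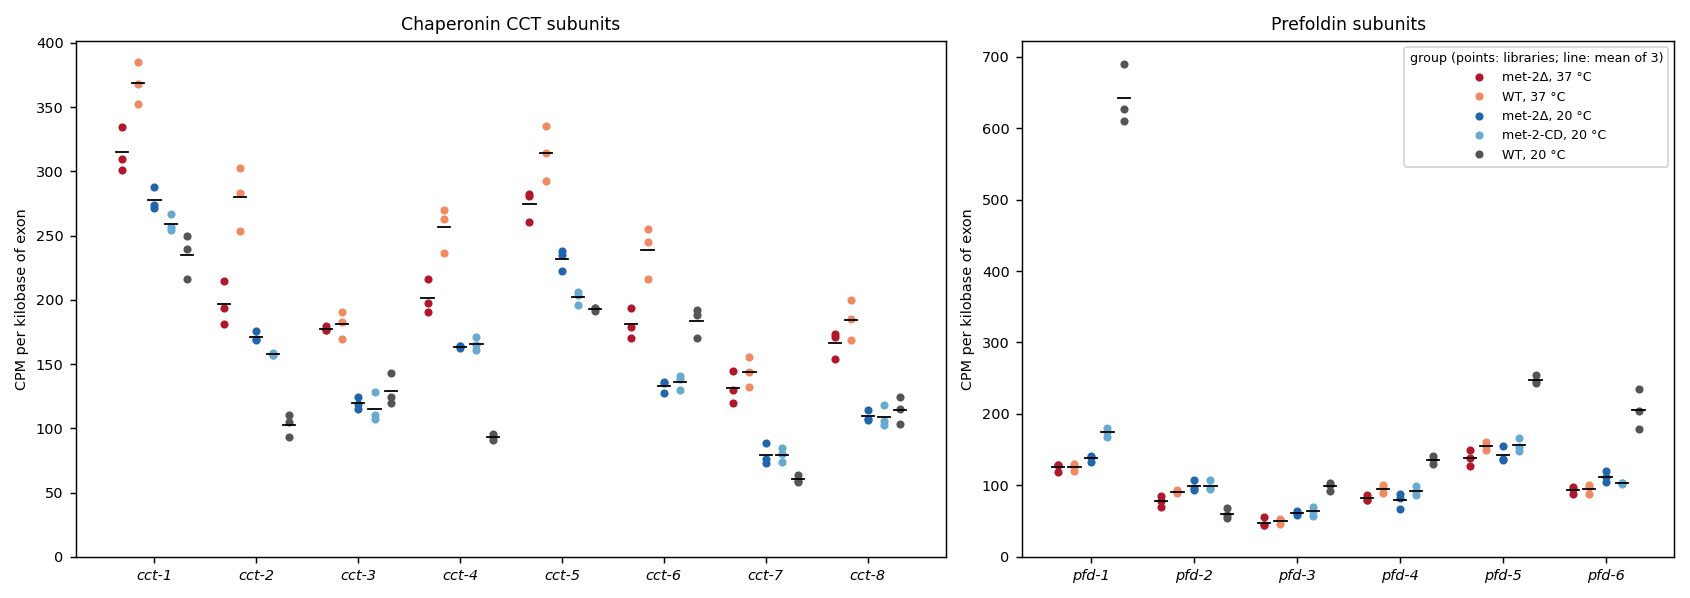
Level per kilobase of exon (vertical axes, CPM per kilobase from 0) of the 8 CCT subunits (left) and the 6 prefoldin subunits (right) in each library of the 5 groups, with a line at each mean of 3. Heated WT libraries are highest for all 8 CCT subunits by their mean, and pfd-1 in WT at 20 °C lies at 610.1 to 690.1 CPM per kilobase against 118 to 181 in the other 12 libraries.

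The prefoldin genes did not follow their chaperonin partner. In WT, 5 of the 6 fell with heat and pfd-2 rose, where 35.6% of all genes fell and 44% rose. In met-2Δ only pfd-2 and pfd-3 were called, both lower, where 21.2% of all genes fell. Against met-2-CD at 20 °C only pfd-1 and pfd-3 were called in heated WT, both lower, where 30% of all genes were lower. In met-2Δ the call of pfd-3 was lost without replicate a or c at 37 °C or replicate a or b at 20 °C (−0.35 to −0.31). The summed level per kilobase was 564 ± 23.7 CPM in met-2Δ and 613 ± 15.5 CPM in WT at 37 °C, and 632 ± 35.6 CPM in met-2Δ, 688 ± 21.8 CPM in the met-2-CD mutant and 1390.3 ± 59.3 CPM in WT at 20 °C (SD, n = 3 each). The coefficient of variation over the subunits was 91.7% in WT at 20 °C and 30.6% to 36.5% in the other groups.

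Most of that excess was pfd-1, on chromosome IV (11150113 to 11150930, plus strand, WBcel235). It had 54.9, 59.4 and 59.6 CPM in met-2Δ and 59.3, 60.2 and 55.5 CPM in WT at 37 °C. At 20 °C it had 64.5, 65.7 and 61.3 CPM in met-2Δ, 77.7, 83.9 and 80.8 CPM in the met-2-CD mutant and 291, 320.2 and 283 CPM in WT. The 3 WT libraries at 20 °C were alone in their range, and the met-2-CD libraries were above the other 9. The log2FC with heat was −0.14 ± 0.06 (SE, edgeR FDR 0.0768) in met-2Δ, −2.35 ± 0.06 (SE, edgeR FDR 2.15e-13) in WT and −0.47 ± 0.06 (SE, edgeR FDR 5.44e-06) in WT over met-2-CD at 20 °C. Per kilobase, pfd-1 was the most abundant of the 49 genes in WT at 20 °C, ahead of dnj-19 and hsp-90, whereas hsp-90 was the most abundant in each of the other 4 groups. In pfd-2, CPM values were 44, 48.1 and 39.4 in met-2Δ and 52, 52.5 and 50.2 in WT at 37 °C, and 61, 54.7 and 53 in met-2Δ, 54.2, 60.6 and 53.3 in the met-2-CD mutant and 33.1, 30.4 and 38.7 in WT at 20 °C. It was the single prefoldin gene at its lowest in WT at 20 °C. Its log2FC with heat was −0.36 ± 0.10 (SE, edgeR FDR 0.00556) in met-2Δ, 0.60 ± 0.09 (SE, edgeR FDR 2.23e-05) in WT and −0.12 ± 0.09 (SE, edgeR FDR 0.252) in WT over met-2-CD at 20 °C, a change of sign. The fall in met-2Δ was not called without replicate a or c at 37 °C or replicate a or b at 20 °C (−0.37 to −0.29).

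The mitochondrial chaperonin gene hsp-60 had 359, 345 and 387 CPM in met-2Δ and 418, 415 and 374 CPM in WT at 37 °C. At 20 °C it had 268, 275 and 319.6 CPM in met-2Δ, 338, 281 and 309 CPM in the met-2-CD mutant and 199, 207 and 239 CPM in WT. All heated libraries were above all unheated ones, by a small margin over the mutants. The log2FC was 0.34 ± 0.09 (SE, edgeR FDR 0.00551) in met-2Δ, 0.90 ± 0.09 (SE, edgeR FDR 1.44e-07) in WT and 0.38 ± 0.09 (SE, edgeR FDR 0.00131) in WT over met-2-CD at 20 °C. In met-2Δ the call was lost without replicate a or c at 37 °C or replicate a or b at 20 °C (0.29 to 0.35).

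Whether loss of MET-2 changes these genes under heat was addressed by met-2Δ against WT at 37 °C, a comparison that does not use WT at 20 °C. Of the 49 genes, 8 were lower in met-2Δ and 0 were higher, where 10.5% of all genes tested were lower and 6.59% higher (17% called in all). At an unadjusted edgeR p below 0.05, 18 members were lower and 2 higher, and DESeq2 called 8 lower and 1 higher. No member differed by more than 2-fold (5.71% of all genes were lower and 1.52% higher by that much), the widest being dnj-3 at −0.65, which was not called. The 8 were hsp-90, bag-1, cct-2, cct-4, cct-6, dnj-13, dnj-16 and dnj-24. By log2FC, hsp-90 stood at −0.60 ± 0.08 (SE, edgeR FDR 0.000103), dnj-24 at −0.64 ± 0.15 (SE, edgeR FDR 0.00538), cct-2 at −0.51 ± 0.08 (SE, edgeR FDR 0.000369), dnj-13 at −0.47 ± 0.09 (SE, edgeR FDR 0.00138), cct-4 at −0.35 ± 0.06 (SE, edgeR FDR 0.000931) and bag-1 at −0.30 ± 0.06 (SE, edgeR FDR 0.00274). Without any single library of the 6 heated ones dnj-24 was no longer called (edgeR FDR 0.0132 to 0.0251), bag-1 lost its call without replicate a or b of either genotype (0.0106 to 0.0155), and dnj-13 without replicate c of met-2Δ (0.0103). The median over the 49 genes was −0.11, against −0.13 over all genes tested.

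**Figure D4:**
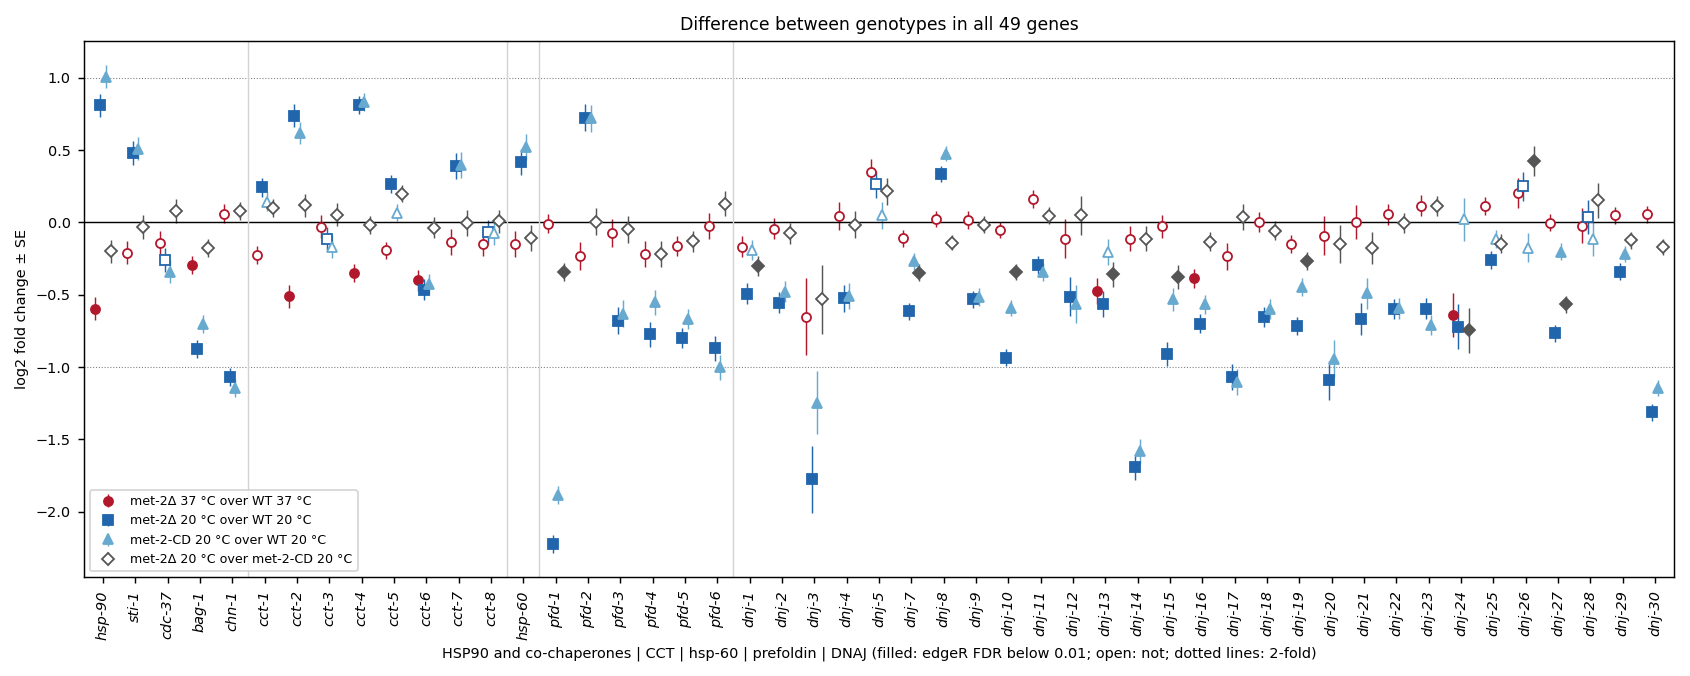
Log2 fold change with its SE (vertical axis) of the 49 genes (horizontal axis, by role) in met-2Δ over WT at 37 °C (circles), met-2Δ over WT at 20 °C (squares), met-2-CD over WT at 20 °C (triangles) and met-2Δ over met-2-CD at 20 °C (diamonds), with filled symbols for an edgeR FDR below 0.01. Squares and triangles share their WT libraries and lie close to each other for most genes, while the circles stay within −0.65 and 0.35.

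At 20 °C the 2 mutants were each compared with the same 3 WT libraries, so their values are given side by side. In met-2Δ 10 of the 49 genes were higher and 33 lower, where 28.2% of all genes tested were higher and 27.5% lower (55.7% called in all), and 7 were lower by more than 2-fold (8.43% of all genes). None was higher by that much (19.2% of all genes were), the highest being hsp-90 and cct-4. Of the 49 genes, 8 rose and 30 fell in the met-2-CD mutant, where 26.5% of all genes were higher and 24.9% lower (51.4% called in all), and with a fold above 2, 1 was higher and 7 were lower (15.9% and 7.84%). The 1 higher gene, hsp-90, was just past that fold, and 0 were higher by DESeq2, with a stricter filter on low counts or without any single library other than replicate a of met-2-CD. The median log2FC over the 49 genes was −0.55 in met-2Δ and −0.43 in the met-2-CD mutant, against 0.07 and 0.04 over all genes. Among the genes with the largest rise, hsp-90 stood at 0.81 ± 0.08 (SE, edgeR FDR 2.93e-07) in met-2Δ and 1.01 ± 0.08 (SE, edgeR FDR 3.44e-08) in the met-2-CD mutant, and cct-4 at 0.81 ± 0.06 (SE, edgeR FDR 2.02e-08) in met-2Δ and 0.83 ± 0.06 (SE, edgeR FDR 1.94e-08) in the met-2-CD mutant. Among the falls, pfd-1 stood at −2.22 ± 0.06 (SE, edgeR FDR 5.05e-13) in met-2Δ and −1.88 ± 0.06 (SE, edgeR FDR 4.26e-12) in the met-2-CD mutant, dnj-14 at −1.69 ± 0.09 (SE, edgeR FDR 2.86e-10) in met-2Δ and −1.58 ± 0.09 (SE, edgeR FDR 6.4e-10) in the met-2-CD mutant, and dnj-3 at −1.78 ± 0.23 (SE, edgeR FDR 7.42e-06) in met-2Δ and −1.25 ± 0.22 (SE, edgeR FDR 0.00013) in the met-2-CD mutant. Scaled by library totals, the median of all genes moved by 0.20 for met-2Δ and by 0.13 for met-2-CD, 63.8% of all calls in met-2Δ were higher in place of 50.6%, and the members split into 12 higher and 27 lower in met-2Δ and 10 higher and 25 lower in the met-2-CD mutant, with 2 higher and 4 lower by more than 2-fold in met-2Δ and 1 and 5 in the met-2-CD mutant. By role, met-2Δ had 5 CCT genes higher and cct-6 lower, 5 prefoldin genes lower and pfd-2 higher, and 25 DNAJ genes lower and dnj-8 higher. Of the calls in met-2Δ, cct-1 (log2FC 0.24) was lost without replicate a or b of met-2Δ or any replicate of WT, cct-5 (0.27) without replicate b of met-2Δ or any replicate of WT, cct-7 (0.39) without replicate a or b of WT, and hsp-60 (0.42) without replicate a of WT. In met-2-CD, dnj-27 (−0.20) was lost without replicate a or c of met-2-CD or replicate b of WT.

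Between the mutants themselves the differences were small. In met-2Δ against met-2-CD, 1 of the 49 genes was higher and 9 were lower, where 9.58% of all genes tested were higher and 11% lower (20.5% called in all). None differed by more than 2-fold, where 4.96% of all genes were higher and 0.892% lower by that much. The lower genes were dnj-1, dnj-7, dnj-10, dnj-13, dnj-15, dnj-19, dnj-24, dnj-27 and pfd-1. The lowest was dnj-24, at −0.74 ± 0.15 (SE, edgeR FDR 0.00211), followed by dnj-27. For dnj-27, CPM values were 197, 201 and 182 in met-2Δ and 202, 197 and 182 in WT at 37 °C, and 185, 191 and 191 in met-2Δ, 277, 285 and 279 in the met-2-CD mutant and 319, 343 and 304 in WT at 20 °C. Here met-2Δ at 20 °C was level with the heated libraries and both other unheated groups were higher. The log2FC of dnj-27 in met-2Δ over met-2-CD was −0.57 ± 0.06 (SE, edgeR FDR 1.42e-05). The higher gene was dnj-26, with 11.5, 11.9 and 11 CPM in met-2Δ and 10.2, 10.6 and 9.07 CPM in WT at 37 °C and with 13.9, 14.3 and 14.3 CPM in met-2Δ, 11.4, 10.3 and 10.01 CPM in the met-2-CD mutant and 12.3, 10.6 and 12.8 CPM in WT at 20 °C. Its difference (0.42 ± 0.10 SE, edgeR FDR 0.00561) was lost without any replicate of met-2Δ or without replicate b or c of met-2-CD. Of the lower genes, dnj-1, dnj-13 and dnj-19 lost the call without replicate a or c of met-2Δ, dnj-15 without replicate c of met-2Δ, and dnj-1 and dnj-19 also without replicate b of met-2-CD. The count of 10 called genes dropped to 6 without replicate a and to 5 without replicate c of met-2Δ, and to 5 in a model of these 2 groups alone. Scaled by library totals, 2 genes were higher and 5 lower, and 66.3% of the calls over all genes were higher in place of 46.6%.

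Whether heat acted differently in the 2 genotypes was tested as the log2FC with heat in met-2Δ minus that in WT. It was above 0 and called for 27 of the 49 genes and below 0 and called for 10, where 23.1% and 27% of all genes tested were (50.1% called in all), with a median of 0.46 over the 49 genes and −0.15 over all genes. Scaled by library totals, the split was 18 and 10, the median of all genes moved by −0.21, and 32.5% of the calls over all genes were above 0 in place of 46.1%. The highest values were those of pfd-1 at 2.21 ± 0.09 (SE, edgeR FDR 6.57e-11) and dnj-14 at 1.58 ± 0.12 (SE, edgeR FDR 6.62e-08), and the lowest those of hsp-90 at −1.41 ± 0.11 (SE, edgeR FDR 8.32e-08) and cct-2 at −1.25 ± 0.11 (SE, edgeR FDR 2.84e-07). With met-2-CD at 20 °C as the unheated side of WT, 3 of the 37 calls remained (cct-2 −0.63 ± 0.11, cct-5 −0.39 ± 0.08 and dnj-27 0.57 ± 0.09, SE), where 5.27% of all genes were called above 0 and 8.87% below. The values of the 4 genes were then 0.33 ± 0.09 for pfd-1, 0.00 ± 0.19 for dnj-14, −0.40 ± 0.11 for hsp-90 and −0.63 ± 0.11 for cct-2.

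Counted over single libraries, without a choice of unheated group, all 6 heated libraries were above all 9 unheated ones for 15 of the 49 genes (30.6%, against 20.8% of all genes tested): 7 CCT genes (all but cct-6), hsp-60, hsp-90, sti-1, dnj-8, dnj-12, dnj-13, dnj-24 and dnj-28. They were below all unheated ones for 16 genes (32.7%, against 18.7%): 13 DNAJ genes, pfd-1, pfd-3 and pfd-6. Of the single groups, met-2Δ at 20 °C was below all 12 other libraries for bag-1, dnj-13, dnj-15, dnj-19 and dnj-24 (10.2%, against 1.68% of all genes) and above them for dnj-26 (2.35% of all genes). Heated WT was above all 12 others for hsp-90, cct-1, cct-2, cct-4, cct-5, cct-6, dnj-13 and dnj-24 (16.3%, against 23.8%) and below them for dnj-11, dnj-23 and dnj-25 (6.12%, against 9.5%), and heated met-2Δ was above them for dnj-5 (2.48% of all genes) and below them for dnj-16 (4.13%). The met-2-CD libraries were above or below all 12 others for 0 members (5.07% and 2.7% of all genes).

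The other genes of these pathways were counted from lists. Of all genes tested, 17.3% rose and 21.2% fell with heat in met-2Δ, and 44% rose and 35.6% fell in WT. At 37 °C, 10.5% were lower in met-2Δ than in WT. Of 8 HSP70 and HSP110 genes, 6 rose and 1 fell with heat in met-2Δ, 6 rose and 0 fell in WT, and 6 were lower in met-2Δ than in WT at 37 °C. Among them, the near-identical copies F44E5.4 and F44E5.5 are uncertain because reads were counted only where they aligned uniquely. The HSP70 partners hip-1 and unc-23 rose in both genotypes and were lower in met-2Δ than in WT at 37 °C. Of 6 other HSP90 partners, 3 rose and 0 fell in met-2Δ, and 3 rose and 2 fell in WT, near the shares of all genes in WT. Of 9 tubulin and actin genes, which encode the main clients of CCT and prefoldin, 2 rose and 1 fell in met-2Δ. In WT 4 of them rose, near the share of all genes, and 1 fell. Exon length also went with the differences: over the 49 genes, Spearman's rho between log2FC and exon length was 0.37 with heat in met-2Δ and 0.45 in WT, and at 20 °C 0.52 for met-2Δ and 0.57 for met-2-CD against WT, whereas over all genes with a length it was 0.06, 0.01, 0.07 and 0.11. The prefoldin genes, at 464 to 898 bases of exon, are among the shortest of the 49. Mean CPM over the 15 libraries went with the differences too. Its rho over the 49 genes was 0.565 with heat in met-2Δ and 0.528 in WT, against −0.372 and −0.491 over all genes. At 20 °C it was 0.441 for met-2Δ and 0.407 for met-2-CD against WT (−0.308 and −0.166 over all genes). The points share libraries and complexes, so these are descriptions, and the part of length or level in the differences was not tested.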

How the data were processed

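The labels describe total RNA of early embryos, depleted of ribosomal RNA, in 15 libraries, 3 biological replicates for each of 5 groups. The labels name a TruSeq stranded kit and the study's methods name Smart-Seq2 and ScriptSeq kits, so the kit used is unsure. The authors trimmed reads, aligned them with hisat2 through QuasR to ce10 and counted unique alignments on the sense strand over WS220 exons. The deposited values are these raw read counts per gene, without scaling. No per-sample column was left unused. Columns are named by group and letter, without the labels' replicate numbers.

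Symbols were matched by WormBase identifier (94.1% of 20392 genes). Positions and exon lengths come from the WBcel235 annotation by identifier (97.4%), and no coordinate was converted from ce10. The members and gene lists were chosen with earlier results of these data known. Counts were scaled by TMM, filtered with filterByExpr (15471 genes) and entered edgeR 4.0.16 under R 4.3.3 (with limma 3.58.1), whose quasi-likelihood F test was run in 1 model of 5 group means over the 15 libraries. FDR values are Benjamini-Hochberg adjusted over all genes tested. Calls need an FDR under 0.01, and counts with folds above 2 (genotype) and 4 (heat) follow the study. The SE was derived from the F statistic. In simulated counts over 15471 genes, the test recovered 34.5%, 67.5% and 93% of 200 genes changed 1.5-, 2- and 4-fold in WT at 37 °C over WT at 20 °C. In the data, 79.6% of all genes were called in that comparison. With so few genes changed, the same FDR asked for a smaller p in the simulation, so these shares do not give the recovery in the data. Members given in every library are hsp-90 and its co-chaperones, hsp-60, dnj-12, dnj-13, dnj-19, and those with the highest and lowest log2FC among called genes of each contrast. No pair of replicates agreed within sampling noise (chi-square per degree of freedom from 6.63 to 53.6). The values were 32.2 to 53.6 in met-2-CD and 24.7 to 38.3 in WT at 20 °C, against 6.63 to 16.1 in the other groups. Those with the larger values are also the deeper groups. Depth differed between groups (16.15 to 58.84 M counts), so low genes such as dnj-3 are less precise in the shallow met-2Δ libraries. WT libraries held 45.83 to 58.84 M counts at 20 °C and 24.38 to 27.13 M at 37 °C, so the heat comparison in WT also crosses depth. The met-2-CD libraries held 38.14 to 48.56 M, so heated WT over met-2-CD crosses depth too. So do the comparisons of met-2Δ at 20 °C (20.05 to 26.26 M) with WT and with met-2-CD. With counts thinned to the smallest library, 44 members were called with heat in WT, as with all counts. Floors cover counting error only. Alternatives were library totals, DESeq2 1.42.0, other filters, an FDR of 0.05, thinned counts, models of the compared groups, leaving out each library, and met-2-CD in place of WT at 20 °C.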

Additional observations from a re-analysis of the deposited data

Results flagged for a closer look

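The heat response differed between the genotypes, by the interaction term of the edgeR model at an FDR below 0.01, for 37 of the 49 genes (27 above 0 and 10 below), where 50.1% of all genes tested were called (23.1% above 0 and 27% below). Values are the log2FC with heat in met-2Δ minus that in WT. They were above 0 for 20 DNAJ genes: dnj-14 1.58, dnj-30 1.37, dnj-20 1.00, dnj-10 0.88, dnj-15 0.88, dnj-17 0.83, dnj-27 0.77, dnj-23 0.71, dnj-21 0.67, dnj-18 0.66, dnj-22 0.65, dnj-19 0.57, dnj-4 0.57, dnj-9 0.55, dnj-2 0.51, dnj-7 0.51, dnj-11 0.46, dnj-29 0.39, dnj-25 0.37 and dnj-16 0.31. They were above 0 for 5 prefoldin genes (pfd-1 2.21, pfd-6 0.85, pfd-5 0.64, pfd-3 0.61 and pfd-4 0.55) and for the co-chaperone genes chn-1 1.13 and bag-1 0.58. They were below 0 for 5 CCT genes (cct-5 −0.46, cct-1 −0.47, cct-7 −0.52, cct-4 −1.16 and cct-2 −1.25) and for dnj-8 −0.31, hsp-60 −0.56, sti-1 −0.69, pfd-2 −0.96 and hsp-90 −1.41. All of them rest on the 3 WT libraries at 20 °C, and with met-2-CD at 20 °C as the unheated side of WT only cct-2, cct-5 and dnj-27 were called. Groups of 3 are too small for a test of single libraries that stand apart.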

How the results depend on the processing

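Replacing WT at 20 °C by met-2-CD at 20 °C moved the most results. With it, 5 members rose by more than 2-fold in heated WT in place of 18 changed, 3 in place of 37 were called for the difference between the heat responses, and 10 in place of 43 (0 in place of 7 by more than 2-fold) for met-2Δ at 20 °C, which is then the comparison of the 2 mutants. The log2FC changed sign for pfd-4 0.042, pfd-2 −0.12 and dnj-20 0.12 with heat in WT, for hsp-90 −0.20, dnj-8 −0.14, pfd-6 0.13, dnj-11 0.047, dnj-12 0.050, cct-4 −0.018, sti-1 −0.032, dnj-17 0.036, chn-1 0.079, cct-7 −0.0045, dnj-23 0.11 and hsp-60 −0.11 in met-2Δ at 20 °C, and for dnj-8 0.16, pfd-6 −0.15, bag-1 −0.12, pfd-5 −0.031, dnj-16 −0.25, dnj-17 −0.27, pfd-3 −0.026 and chn-1 −0.019 in the difference between the heat responses. These groups differ from WT at 20 °C in genotype, and the cause was not tested. Leaving out single libraries gave 17 to 27 called members with heat in met-2Δ (29 with all) and 5 to 10 for met-2Δ against met-2-CD (10 with all), where a model of those 2 groups alone gave 5. Library totals in place of TMM turned no named gene. Across the alternatives, 2615 values of single genes kept direction and call, 216 lost the call and 23 changed sign, all 23 of them with met-2-CD in place of WT. No paired analysis was possible because the table's columns carry letters, not the replicate numbers of the labels. Low depth limits dnj-3, at 15 counts or more per library, the most.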
